A study of Oryza sativa with 4 samples.

Results

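Glutathione S-transferase (GST) genes were examined in rice leaves that overexpress *OsNAC14*, a NAC transcription factor gene, and in leaves of non-transgenic (NT) plants. A transcript belonged to the family when its deposited description held the words glutathione S-transferase, with or without the hyphen, or glutathione transferase. This rule took 66 transcripts of 59 genes, out of 37972 transcripts of 31414 genes in the table. The rule used no measured value. It missed 4 transcripts described only as In2-1, a name of lambda-class enzymes, which were not counted here. It also left out dehydroascorbate reductases, another GST class, which stand in the glutathione list below. It took 12 transcripts of 11 genes whose description names only a GST domain.

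The 2 *OsNAC14OX* libraries came from plants carrying the construct PGD1:OsNAC14, in which the constitutive *PGD1* promoter drives the *OsNAC14* coding region in the whole plant. The 2 NT libraries came from plants without the construct. All plants were grown in greenhouse soil pots after germination on Murashige and Skoog medium, and leaves were taken with no drought treatment stated. The labels give an age of 20 days and the cultivar as Nipponbre, while the study's methods give 2 weeks and cultivar Nakdong. The descriptions of the NT libraries themselves name Nakdong, with a year-like tag that those of *OsNAC14OX* lack. The transgenic plants are single-insertion homozygous material, so a group difference cannot be told apart from an effect of the insertion or of the line. The labels do not say whether replicates were separate plants, pools or sowings, and p-values therefore measure only the spread between these libraries.

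GSTs join the tripeptide glutathione to reactive or foreign compounds, which makes these more soluble and marks them for transport into the vacuole. Plants hold large GST families. The tau and phi classes are specific to plants or nearly so and act on herbicides and other toxic compounds, whereas zeta and theta classes are shared with animals. Many genes of the family lie side by side in the genome as products of tandem duplication, and many are known to respond to oxidative stress, safeners and water deficit.

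*OsNAC14* itself (Os01t0675800-01) had 16.4 and 16.3 FPKM in *OsNAC14OX* leaves, against 3.16 and 3.70 FPKM in NT leaves (FPKM, fragments per kilobase of transcript scaled to the library's mapped fragments). The log2 fold change was 1.99 (SE 0.11, limma adjusted p = 0.0204), the direction the library labels state. Leaf markers were high in all 4 libraries. The summed level of 16 Rubisco small subunit and light-harvesting transcripts was 8876 and 11013 FPKM in *OsNAC14OX*, against 8738 and 8644 FPKM in NT, and none of the 16 lay under 1 FPKM. The 55 transcripts described with pollen or anther summed to 3366 and 4169 FPKM in *OsNAC14OX* and to 3606 and 3885 FPKM in NT, with 11 under 1 FPKM. The 3 root-named transcripts summed to 22.9 and 50.5 FPKM in *OsNAC14OX*, against 50.1 and 50.5 FPKM in NT, with 1 under 1 FPKM. These sets rest on description words alone, and whether their members are expressed only in the organ named was not checked. The part of these differences in the GST values was not tested. The files hold no read counts, so the depth behind each value is unknown.

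No GST transcript passed the test between *OsNAC14OX* and NT leaves, and the family's level was nearly the same in both groups. The family summed to 1163 and 1188 FPKM in *OsNAC14OX* leaves, against 1168 and 1265 FPKM in NT leaves. The NT libraries lay farther apart from each other than the first NT library lay from either *OsNAC14OX* library. Group means were 1175 ± 17.4 FPKM in *OsNAC14OX* and 1217 ± 68.7 FPKM in NT (SD, n = 2 each), a ratio of 0.966. As a share of the summed FPKM of all transcripts, the family took 0.158% and 0.159% in *OsNAC14OX* and 0.155% and 0.165% in NT. With 2 libraries against 2, an exact permutation test cannot reach 0.05, and no test was made of this sum.

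The leaf level of the family rested on a small set of genes. FPKM summed over the transcripts of each gene reached a mean of at least 30 over the 4 libraries in 18 genes, 10 to 30 in 10 genes, 1 to 10 in 21 genes and under 1 in 10 genes. The 10 highest genes of each library, taken separately in each, held 52.8% and 54.9% of the family's summed FPKM in *OsNAC14OX*, and 51.5% and 51.9% in NT. Of all genes, 6 stood among the 10 highest in every one of the 4 libraries. The order of the 59 genes was close to the same in the groups (Spearman's rho 0.991 between group means, a description over genes that share libraries).

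**Figure D1:**
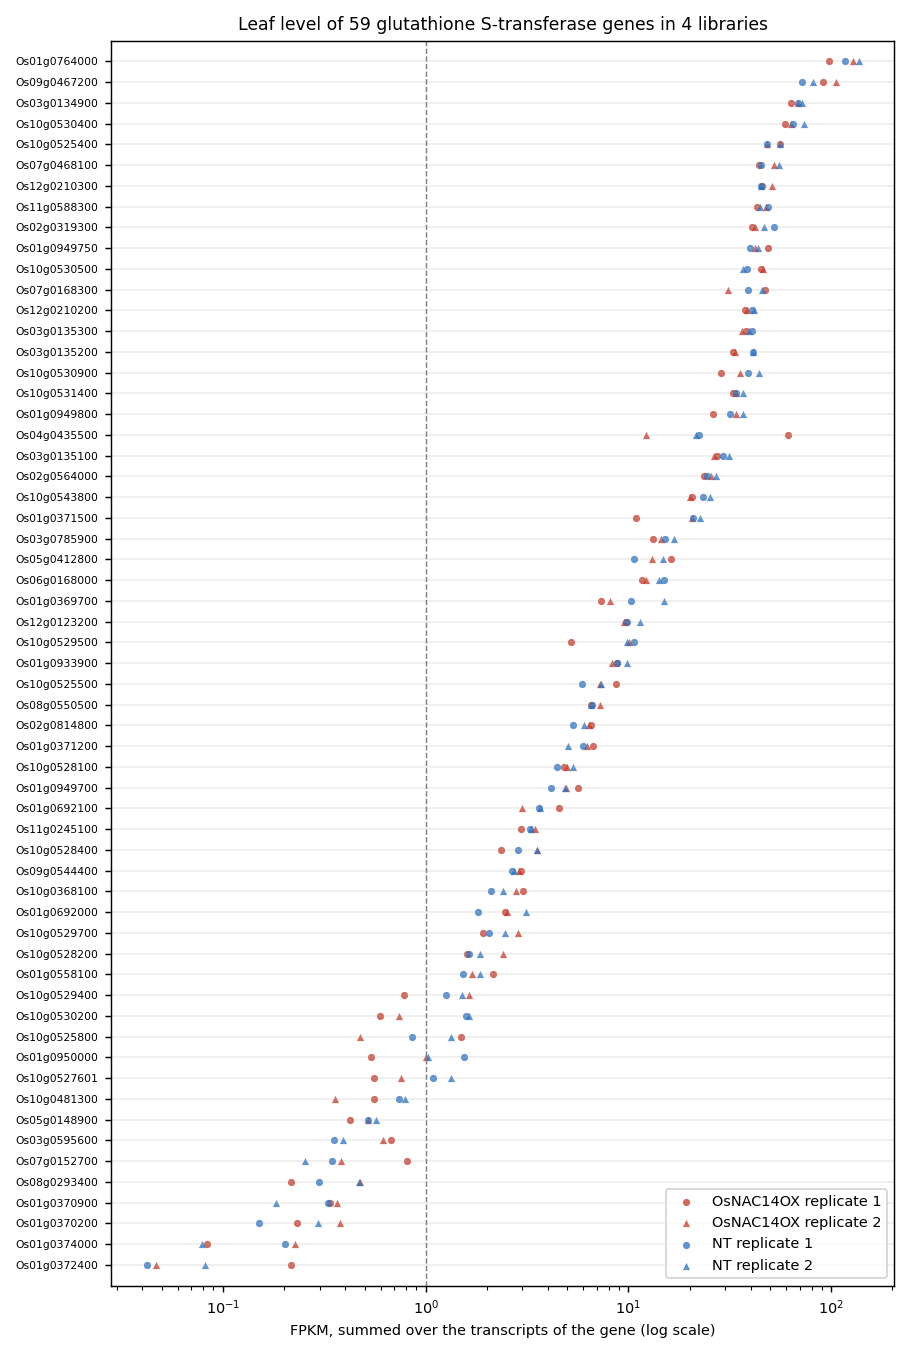
FPKM of 59 GST genes (rows, ordered by mean level) in 4 libraries on a log axis, with red points for *OsNAC14OX* and blue points for NT, circles for replicate 1 and triangles for replicate 2, and a dashed line at 1 FPKM. The 4 points of a gene lie close together above 30 FPKM, and Os04g0435500 is the exception near 30 FPKM, with 61.2 and 12.2 FPKM in the *OsNAC14OX* libraries.

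The highest gene taken by the rule in every library was Os01g0764000, on chromosome 1 (32148158 to 32152034, IRGSP-1.0), described as similar to GST-I of the phi class. Maize GST-I is known as an enzyme that conjugates chloroacetanilide and triazine herbicides. Its main transcript Os01t0764000-01 had 97.2 and 127.5 FPKM in *OsNAC14OX*, against 116.7 and 136.6 FPKM in NT. The ranges overlapped, and the log2 fold change was -0.13 (SE 0.17, limma adjusted p = 0.859). The second transcript model of the gene, Os01t0764000-03, was listed under 0.01 FPKM in all 4 libraries.

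The second highest gene in every library was Os09g0467200 on chromosome 9 (17747274 to 17748705), described as similar to GST 23. Os09t0467200-01 had 91.2 and 105.6 FPKM in *OsNAC14OX*, against 71.6 and 81.5 FPKM in NT, so both *OsNAC14OX* libraries lay above both NT libraries. Its log2 fold change of 0.40 (SE 0.12) was the most positive of the family. The unadjusted p was 0.0271 and the limma adjusted p was 0.442, so the gene did not pass the test.

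The next genes of the order had closely similar levels in both groups. Os03t0134900-01, similar to the phi-class GSTF14, had 63.6 and 68.7 FPKM in *OsNAC14OX* and 68.4 and 71.5 FPKM in NT. Os10t0530400-01, described as similar to Cla47, had 59.1 and 63.3 FPKM in *OsNAC14OX* and 65.1 and 73.6 FPKM in NT. Os10t0525400-01, similar to the tau-class GSTU31, had 44.8 and 38.6 FPKM in *OsNAC14OX* and 36.2 and 44.6 FPKM in NT. In the deposited normalized values the ranges of the groups overlapped in each of these 3 genes. In FPKM, both *OsNAC14OX* values of Os10t0530400-01 lay below both NT values. The log2 fold changes were -0.04, -0.13 and 0.07 in the order named.

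The remaining high genes showed small differences of either sign. Os07t0468100-02, similar to GST 19, had 40.2 and 49.1 FPKM in *OsNAC14OX* and 42.4 and 52.8 FPKM in NT. Os02t0319300-01, known in the table only by a C-terminal GST domain, had 40.8 and 42.0 FPKM in *OsNAC14OX* and 52.3 and 46.5 FPKM in NT, with both *OsNAC14OX* libraries below both NT libraries (log2 fold change -0.22, limma adjusted p = 0.625). Os01t0949750-00, similar to GST 28, had 48.9 and 42.2 FPKM in *OsNAC14OX* and 39.7 and 43.5 FPKM in NT. In the deposited normalized values its *OsNAC14OX* libraries both lay above the NT libraries (log2 fold change 0.15), but in FPKM the groups overlapped.

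High GST genes also lay on chromosomes 11 and 12. Os11t0588300-01, similar to AtGST 10, an *Arabidopsis* enzyme of the theta class, had 43.0 and 47.9 FPKM in *OsNAC14OX* and 40.3 and 44.6 FPKM in NT. Its second transcript model Os11t0588300-02 was listed at 8.36 FPKM in NT replicate 1 and at 0.0126 FPKM in NT replicate 2, and under 0.01 FPKM in both *OsNAC14OX* libraries. It stayed outside the test because a single library exceeded 1 FPKM. The neighbouring GST 18-like genes Os12g0210300 and Os12g0210200 on chromosome 12 had 45.5 and 50.9 FPKM and 37.7 and 38.4 FPKM in *OsNAC14OX*, against 44.9 and 45.0 FPKM and 40.7 and 41.5 FPKM in NT.

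The test was made with limma on the deposited quantile-normalized log2(FPKM + 1) values, over 30251 transcripts that reached 1 FPKM in 2 or more libraries. A call needed a Benjamini-Hochberg adjusted p under 0.05 together with a 2-fold difference. Among all tested transcripts 168 were called, or 0.555%. Of the 66 GST transcripts, 53 transcripts of 50 genes entered the test and 0 were called, with a smallest adjusted p of 0.250. An unadjusted p under 0.05 was found in 6 of the 53 (11.3%), against 9.4% of all tested transcripts. These 6 include Os10t0530200-01 and Os10t0527601-00, which entered the test through the NT libraries alone, where they were higher. The count is therefore no support for a difference. On the log2(FPKM + 1) scale a fold change understates the change of genes with few FPKM.

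No tested GST transcript reached a 2-fold difference on the log2(FPKM + 1) scale. In whole leaves, fewer cells of a type and less RNA per cell cannot be told apart. The median log2 fold change of the 53 GST transcripts was -0.05, beside 0.00 over all tested transcripts, and the values ran from -0.69 to 0.40. Below 0 lay 30 of the 53 (56.6%), against 49.3% of all tested transcripts, and above 0 lay 23. The 30 include Os10t0530200-01 and Os10t0527601-00, which entered the test through NT alone. The sign of the median depended on single libraries. It was 0.03 without *OsNAC14OX* replicate 1 and 0.02 without NT replicate 2. The median size of the difference without regard to sign was 0.15 in the GST transcripts and 0.13 over all tested transcripts. Between the *OsNAC14OX* replicates the same quantity was 0.17 in the GST transcripts and 0.17 over all, and between the NT replicates it was 0.12 in both. A group difference is one of means of 2 libraries and a replicate difference one of single libraries, so these sizes are not on equal terms.

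Full separation of the groups was counted next, in the deposited normalized values. Both *OsNAC14OX* libraries lay above both NT libraries in 11 of 53 GST transcripts (20.8%), against 20.4% of all tested transcripts. Both lay below in 15 (28.3%), against 20.6%. The 15 include Os10t0530200-01 and Os10t0527601-00, which entered the test through NT alone. In the remaining 27 the groups overlapped. In FPKM some members changed place. Os01t0949750-00 and Os10t0525500-01, for instance, overlapped in FPKM, whereas Os10t0530400-01 lay below NT in both *OsNAC14OX* libraries.

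The 95% interval of the difference, on the same log2(FPKM + 1) scale, stayed within 2-fold in either direction in 49 of 53 GST transcripts (92.5%), against 84.1% of all tested transcripts. For members near 1 FPKM this scale compresses differences, and their intervals set no limit on the change in FPKM. The 4 exceptions were Os04t0435500-01, Os01t0371500-01, Os10t0529500-01 and Os01t0369700-03. For the highest gene Os01g0764000 the interval of Os01t0764000-01 ran from -0.60 to 0.35 on the log2 scale. For Os09t0467200-01 it ran from 0.07 to 0.73.

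**Figure D2:**
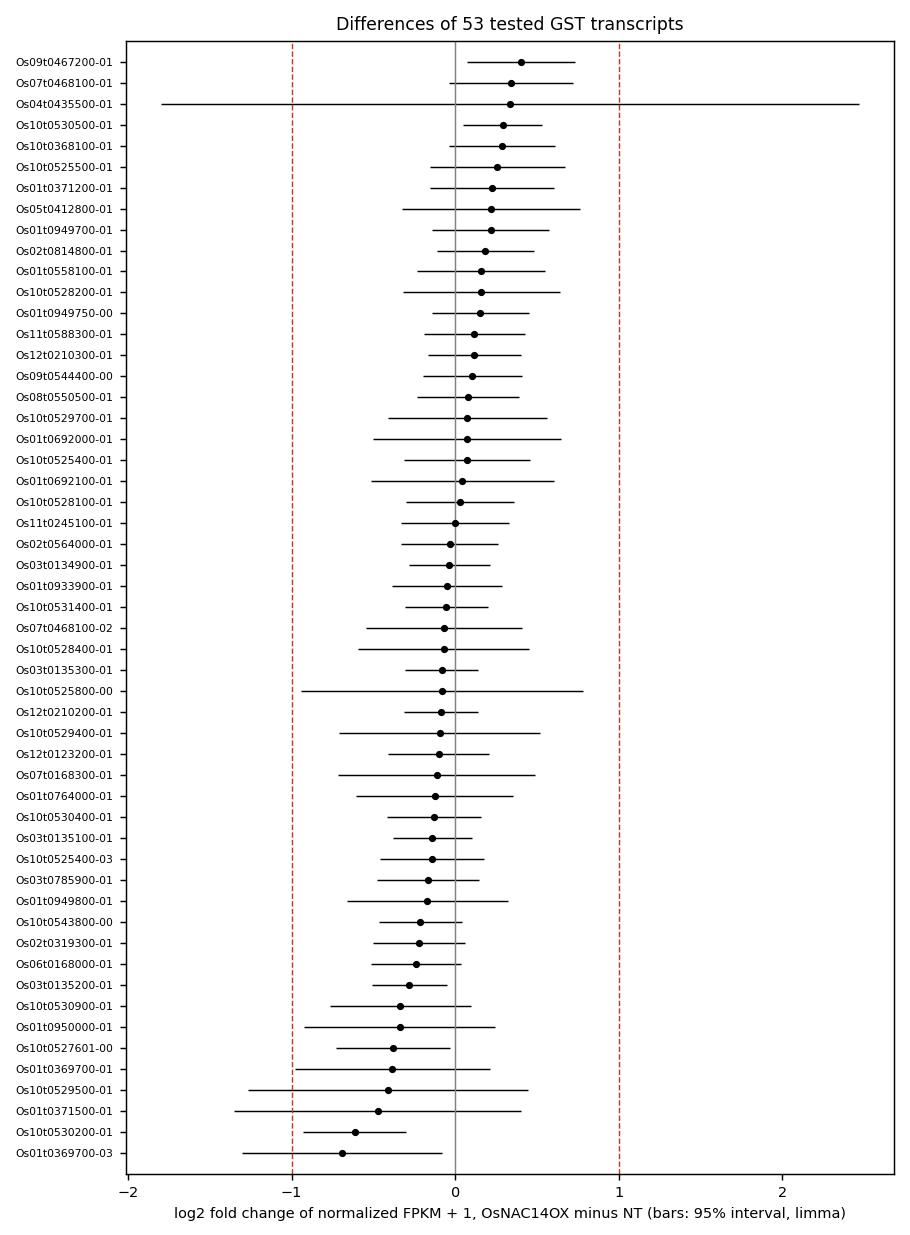
Log2 fold change of normalized FPKM + 1, *OsNAC14OX* minus NT (horizontal axis), for the 53 tested GST transcripts (rows), with 95% intervals from limma as bars and dashed lines at a 2-fold difference. All points lie within the dashed lines, from -0.69 to 0.40, and 4 intervals reach past a line.

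Among the transcripts with the lowest values relative to NT, most had low levels. Os10t0530200-01, similar to the GST TSI-1 and located on chromosome 10 (20610079 to 20611336), had 0.593 and 0.737 FPKM in *OsNAC14OX*, against 1.57 and 1.64 FPKM in NT. Both *OsNAC14OX* libraries lay below both NT libraries, and it entered the test through the NT libraries alone. Its log2 fold change was -0.61 (SE 0.11), with the smallest p of the family (unadjusted p = 0.00557, limma adjusted p = 0.250). Its value depended on the pseudocount, with a log2 fold change of -0.81 at a pseudocount of 0.5 and of -1.10 at 0.1, past 2-fold, and it was not called at either. Os10t0527601-00, a domain-only member of another tandem group on chromosome 10, had 0.559 and 0.758 FPKM in *OsNAC14OX* and 1.09 and 1.33 FPKM in NT (log2 fold change -0.38, limma adjusted p = 0.498), and likewise reached 1 FPKM only in NT.

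The most negative value belonged to Os01g0369700 on chromosome 1, similar to GST 8, which is listed with a pair of overlapping transcript models. Os01t0369700-03 had 4.49 and 3.79 FPKM in *OsNAC14OX*, against 5.93 and 9.26 FPKM in NT (log2 fold change -0.69, SE 0.22, unadjusted p = 0.035, limma adjusted p = 0.478). Os01t0369700-01 had 2.80 and 4.35 FPKM in *OsNAC14OX*, against 4.41 and 5.67 FPKM in NT (log2 fold change -0.38). In both models the *OsNAC14OX* libraries lay below the NT libraries. The division of reads between models of a gene is an estimate. Summed over both models, the gene had 7.29 and 8.15 FPKM in *OsNAC14OX* and 10.3 and 14.9 FPKM in NT, a log2 fold change of -0.63 without quantile normalization.

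In 2 further low-lying members only *OsNAC14OX* replicate 1 stood far below the rest. Os01t0371500-01 had 10.9 and 20.6 FPKM in *OsNAC14OX*, against 20.8 and 22.6 FPKM in NT (log2 fold change -0.47, limma adjusted p = 0.726). Os10t0529500-01, similar to GST 2, had 5.22 and 10.03 FPKM in *OsNAC14OX*, against 10.7 and 9.88 FPKM in NT (log2 fold change -0.41, limma adjusted p = 0.753). In both, *OsNAC14OX* replicate 2 had nearly the NT level, and without replicate 1 the log2 fold change was -0.04 in Os01t0371500-01 and 0.00 in Os10t0529500-01. Without replicate 2 that of Os01t0371500-01 was -0.91 (limma adjusted p = 0.0567).

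At the positive end, Os10t0530500-01, the second Cla47-like gene, had 44.9 and 46.1 FPKM in *OsNAC14OX*, against 38.5 and 36.7 FPKM in NT (log2 fold change 0.29, SE 0.09, unadjusted p = 0.0282, limma adjusted p = 0.444). Here the replicates of each group nearly coincided and the groups did not overlap. Lower-level members of this end were Os07t0468100-01, with 3.79 and 3.11 FPKM in *OsNAC14OX* and 2.47 and 2.66 FPKM in NT, and the tau-class Os10t0368100-01, with 3.01 and 2.79 FPKM in *OsNAC14OX* and 2.11 and 2.42 FPKM in NT. Os10t0525500-01 had 8.64 and 7.24 FPKM in *OsNAC14OX* and 5.89 and 7.36 FPKM in NT, ranges that overlapped in FPKM. None of these passed the test, with limma adjusted p of 0.571, 0.587 and 0.698.

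Os07g0468100 shows how transcript models of a gene can differ in sign. Os07t0468100-01 was the minor model, with a log2 fold change of 0.34, whereas the major model Os07t0468100-02 had -0.07. Summed over both, the gene Os07g0468100 had 44.0 and 52.2 FPKM in *OsNAC14OX* and 44.9 and 55.4 FPKM in NT, a log2 fold change of -0.06 without quantile normalization.

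The widest split between replicates was in Os04g0435500 on chromosome 4 (21662079 to 21664310), a member known in the table only by a C-terminal GST domain. Os04t0435500-01 had 58.5 and 11.7 FPKM in *OsNAC14OX*, against 21.4 and 20.8 FPKM in NT. The NT libraries lay close together, while the first *OsNAC14OX* library lay above them and the second below. The log2 fold change was 0.34 with an SE of 0.77 and an interval from -1.80 to 2.47 (limma adjusted p = 0.922). Without *OsNAC14OX* replicate 2 it was 1.43 (adjusted p = 0.0314, a call), and without *OsNAC14OX* replicate 1 it was -0.76. The minor model Os04t0435500-02 followed the same pattern at a lower level, with 2.74 and 0.446 FPKM in *OsNAC14OX* and 0.822 and 0.783 FPKM in NT.

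It was the only tested GST transcript with a 2-fold split between *OsNAC14OX* replicates. Replicate 1 was at least 2-fold above replicate 2 in 1 of 53 GST transcripts (1.89%), against 3.55% of all tested transcripts, and at least 2-fold below it in 0 of 53, against 1.11%. The NT replicates were 2-fold apart in 0 of 53, against 2.28% of all tested transcripts. The next largest splits were -0.87 in Os01t0371500-01, -0.83 in Os10t0529500-01, 0.79 in Os10t0525800-00 and 0.55 in Os07t0168300-01, as log2 of replicate 1 over replicate 2. Os10t0525800-00, a GSTU31-like gene, had 1.49 and 0.474 FPKM in *OsNAC14OX* and 0.853 and 1.33 FPKM in NT. Os07t0168300-01, similar to the tau-class GSTU6, had 46.9 and 30.8 FPKM in *OsNAC14OX* and 39.0 and 45.4 FPKM in NT. In both, the NT values lay between the *OsNAC14OX* values.

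**Figure D3:**
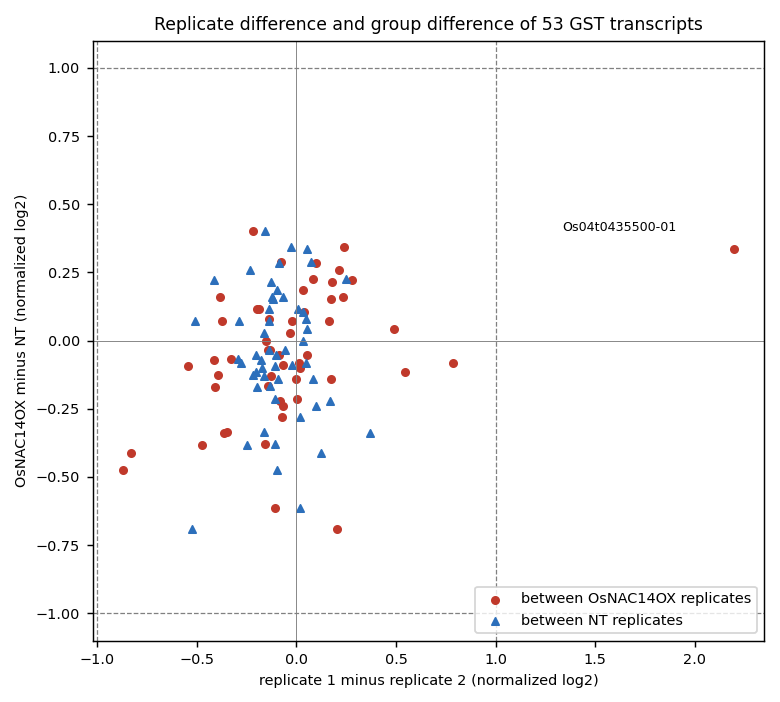
Difference between replicates (horizontal axis, replicate 1 minus replicate 2, normalized log2) against the group difference (vertical axis, *OsNAC14OX* minus NT, normalized log2) for 53 GST transcripts, with a red circle for the *OsNAC14OX* replicates and a blue triangle for the NT replicates of each transcript and dashed lines at 2-fold. Os04t0435500-01 lies alone at 2.20 on the horizontal axis, and no transcript lies past a dashed line on the vertical axis.

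GST genes lay on all 12 chromosomes, with 18 genes on chromosome 10 and 16 on chromosome 1. Joining genes whose starts were at most 50 kb apart gave 7 tandem groups with 32 genes, and 27 genes stood alone. Near-identical neighbours can share reads, and how such reads were assigned is not given in the methods or labels, so levels within a tandem group are less certain than those of single genes. The ratio of the highest to the lowest gene mean was 1.18, 1.495 and 2.38 in 3 of the groups and ran from 42.4 to 71.0 in the other 4.

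The largest tandem group held 11 genes on chromosome 10 (20551208 to 20646880), from Os10g0528100 to Os10g0531400. Its summed level was 182.9 and 205.3 FPKM in *OsNAC14OX*, against 200.9 and 217.2 FPKM in NT. Mean levels over the 4 libraries ran from 1.13 FPKM in Os10g0530200 to 65.3 FPKM in Os10g0530400, a ratio of 57.5. The last 4 genes in chromosome order held the high levels, with a lowest single value of 28.6 FPKM (Os10g0530900), while the highest single value of the first 7 genes was 10.7 FPKM (Os10g0529500). Log2 fold changes were negative in 7 of the 11 and positive in 4, from -0.61 to 0.29.

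The Cla47-like neighbours Os10g0530400 and Os10g0530500 of this group, chosen for a closer look after their values were seen, lay on opposite sides. The level of Os10g0530500 relative to Os10g0530400 was 0.760 and 0.729 in *OsNAC14OX*, against 0.591 and 0.499 in NT. The GST 30-like pair at the end of the group gave a ratio of Os10g0531400 to Os10g0530900 of 1.15 and 0.954 in *OsNAC14OX*, against 0.876 and 0.839 in NT. Os10t0530900-01 itself had 28.6 and 35.6 FPKM in *OsNAC14OX* and 38.8 and 43.9 FPKM in NT (log2 fold change -0.34, limma adjusted p = 0.630). No difference within either pair was tested.

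The 4 genes of chromosome 3 (1938239 to 1955959), from Os03g0134900 to Os03g0135300, were all well expressed and all had negative log2 fold changes, from -0.28 to -0.04. They include GSTF14-like and GSTF15 genes of the phi class. Their summed level was 161.5 and 165.0 FPKM in *OsNAC14OX*, against 179.3 and 183.2 FPKM in NT, so the groups did not overlap. The farthest from 0 was Os03t0135200-01, similar to GST 9, with 32.7 and 33.4 FPKM in *OsNAC14OX* and 41.2 and 40.9 FPKM in NT (log2 fold change -0.28, unadjusted p = 0.0278, limma adjusted p = 0.444). None of the 4 passed the test, and without *OsNAC14OX* replicate 1 the log2 fold change of Os03t0134900-01 was 0.03.

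The other tandem groups had low or mixed values. On chromosome 1 (15170440 to 15294409) 5 genes summed to 25.4 and 35.7 FPKM in *OsNAC14OX* and to 37.6 and 43.1 FPKM in NT, led by Os01g0371500, and 2 of them, Os01g0370200 and Os01g0370900, stayed under 1 FPKM in all libraries. Toward the end of chromosome 1 (41839951 to 41849077) 4 genes, of which 3 are GST 28-like, summed to 81.2 and 82.0 FPKM in *OsNAC14OX* and to 77.1 and 86.2 FPKM in NT. On chromosome 10 (20432060 to 20494200) the 4 genes from Os10g0525400 to Os10g0527601 summed to 66.6 and 56.7 FPKM in *OsNAC14OX* and to 56.0 and 66.1 FPKM in NT. In the groups led by the GST 28-like genes and by Os10g0525400 the sums overlapped between *OsNAC14OX* and NT. In the first group of chromosome 1 both *OsNAC14OX* sums lay below both NT sums, with *OsNAC14OX* replicate 1 the lowest.

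**Figure D4:**
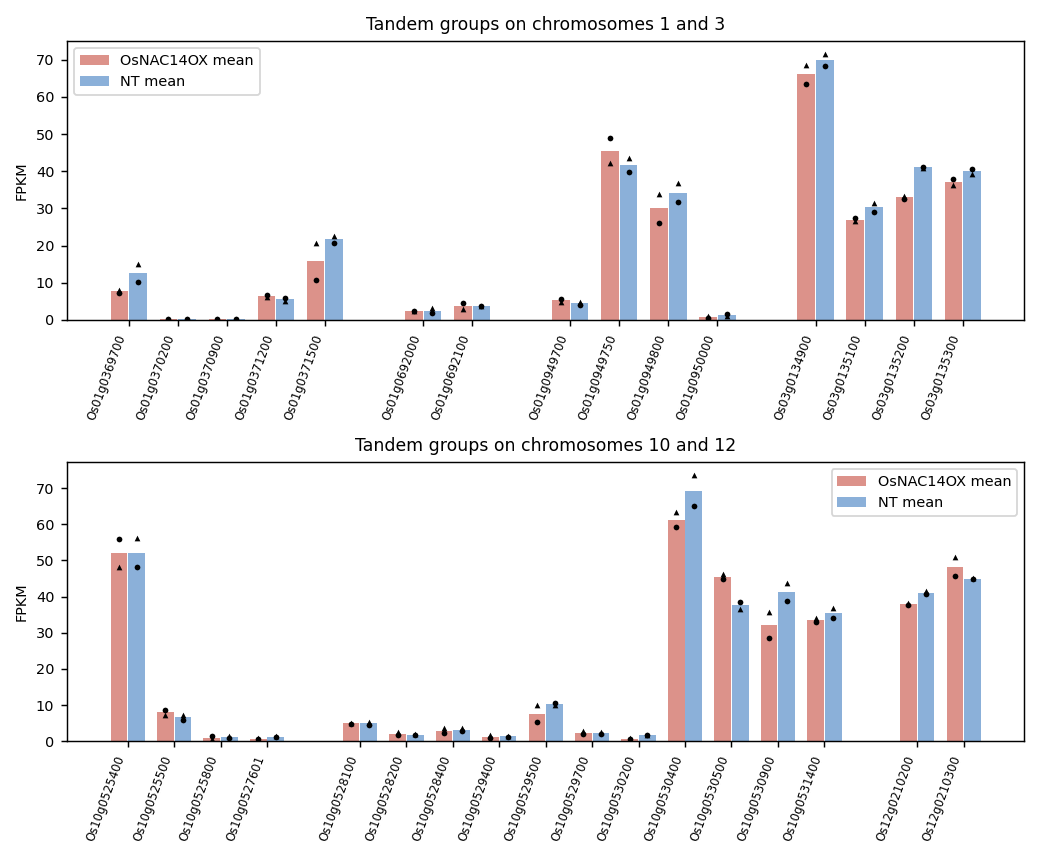
FPKM of the genes of the 7 tandem groups (bars, group means of 2 libraries, red for *OsNAC14OX* and blue for NT, and black circles for replicate 1 and triangles for replicate 2), with chromosomes 1 and 3 in the upper panel and 10 and 12 in the lower. Genes stand in chromosome order, and in the group of 11 genes on chromosome 10 the last 4 stand above the first 7 in every library.

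The class of an enzyme could be read from the description for few genes, 6 of the tau class and 4 of the phi class. The tau members summed to 99.4 and 76.9 FPKM in *OsNAC14OX* and to 81.2 and 98.4 FPKM in NT. The phi members summed to 188.2 and 223.0 FPKM in *OsNAC14OX* and to 214.4 and 239.7 FPKM in NT. In both classes the groups overlapped. The 6 tested tau transcripts ran from -0.11 to 0.28 in log2 fold change, and the 3 tested phi transcripts from -0.14 to -0.04.

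The 13 GST transcripts outside the test reached 1 FPKM in fewer than 2 libraries. The highest single values among them were 8.36 FPKM in Os11t0588300-02 and 2.74 FPKM in Os04t0435500-02. The number of GST transcripts with at least 1 FPKM was 50 and 50 in *OsNAC14OX* and 53 and 53 in NT, and over all transcripts it was 29446 and 29669 in *OsNAC14OX* and 29672 and 29947 in NT. No transcript was tested for 9 genes, and all 9 stayed under 1 FPKM in every library. The lowest was Os01g0372400, with 0.216 and 0.0468 FPKM in *OsNAC14OX* and 0.0421 and 0.0821 FPKM in NT. Os03g0595600 had 0.671 and 0.616 FPKM in *OsNAC14OX*, against 0.352 and 0.392 FPKM in NT, and Os07g0152700 had 0.808 and 0.383 FPKM in *OsNAC14OX*, against 0.345 and 0.256 FPKM in NT. In the other direction, Os10g0481300 had 0.558 and 0.357 FPKM in *OsNAC14OX*, against 0.738 and 0.793 FPKM in NT. Os05g0148900 had 0.426 and 0.519 FPKM in *OsNAC14OX*, against 0.519 and 0.572 FPKM in NT. With no filter on FPKM, the median log2 fold change over all 66 GST transcripts was -0.03, and still 0 were called.

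Enzymes and pumps of glutathione metabolism beside the GSTs were listed by description words alone, 84 transcripts of which 67 were tested. None was called, against 0.555% of all tested transcripts, and an unadjusted p under 0.05 was found in 8 (11.9%), against 9.4%. The list holds 2 subunits of RNase MRP among the conjugate pumps and 5 monodehydroascorbate reductases, which the words matched by accident. Whether the other members act on glutathione was not checked, including those described as phytochelatin synthetase-like. Glutamate-cysteine ligase (Os07t0462000-01), the first enzyme of glutathione synthesis, had 52.3 and 52.3 FPKM in *OsNAC14OX* and 60.1 and 57.6 FPKM in NT (log2 fold change -0.14, limma adjusted p = 0.694). Cytosolic glutathione reductase (Os02t0813500-01), which returns oxidized glutathione to its reduced form, had 67.4 and 69.2 FPKM in *OsNAC14OX* and 67.6 and 66.9 FPKM in NT.

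Some proteins of the list had higher levels than any transcript taken by the family rule. Dehydroascorbate reductase (Os05t0116100-01), which regenerates ascorbate, had 296.3 and 328.0 FPKM in *OsNAC14OX* and 315.8 and 310.1 FPKM in NT. It belongs to a GST class that the rule left out. A glyoxalase I-like transcript (Os08t0191700-01), of the pathway that removes methylglyoxal, had 282.8 and 318.1 FPKM in *OsNAC14OX* and 280.9 and 299.4 FPKM in NT. The most abundant multidrug-resistance-associated transporter (Os04t0620000-01), of the family that moves glutathione conjugates into the vacuole, had 163.4 and 162.1 FPKM in *OsNAC14OX* and 157.5 and 159.1 FPKM in NT. None of the 3 passed the test, with limma adjusted p of 0.867, 0.718 and 0.719.

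The most abundant members of the smaller parts of the list likewise did not pass. The glutaredoxin Os04t0508300-01 had 158.0 and 159.5 FPKM in *OsNAC14OX* and 153.7 and 156.3 FPKM in NT. Phytochelatin synthetase-like protein 2 (Os05t0386800-01) had 80.9 and 78.5 FPKM in *OsNAC14OX* and 100.7 and 90.8 FPKM in NT. Gamma-glutamyl transpeptidase (Os01t0151500-00), which starts glutathione breakdown, had 8.33 and 8.66 FPKM in *OsNAC14OX* and 10.2 and 12.7 FPKM in NT, and the class III alcohol dehydrogenase of formaldehyde removal (Os08t0109200-01) had 10.5 and 11.4 FPKM in *OsNAC14OX* and 12.3 and 13.9 FPKM in NT. Their limma adjusted p were 0.733, 0.612, 0.559 and 0.685.

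Glutaredoxins are small enzymes that reduce disulfides with glutathione. Within the list, 4 of the 12 tested glutaredoxin transcripts had an unadjusted p under 0.05, against 9.4% of all tested transcripts, and all 4 were lower in *OsNAC14OX*. The other 4 transcripts of the list with such a p were 2 conjugate pumps and 1 glyoxalase, higher in *OsNAC14OX*, and 1 glutathione peroxidase, lower. These 8 were singled out after their values were seen. The farthest from 0 was the glutaredoxin-C1-like Os01t0368900-01, with 2.55 and 4.61 FPKM in *OsNAC14OX* and 9.12 and 7.30 FPKM in NT (log2 fold change -1.001, limma adjusted p = 0.406). The glutaredoxin-C8-like Os12t0266000-01 had 17.6 and 19.8 FPKM in *OsNAC14OX* and 27.4 and 29.8 FPKM in NT (log2 fold change -0.57, limma adjusted p = 0.267). The other pair were Os08t0565800-01, with 1.07 and 1.30 FPKM in *OsNAC14OX* and 1.99 and 3.31 FPKM in NT, and Os02t0512400-01, with 1.67 and 1.60 FPKM in *OsNAC14OX* and 2.72 and 3.21 FPKM in NT. Os08t0565800-01 is a minor model of its gene. The major model Os08t0565800-02 had 29.0 and 28.9 FPKM in *OsNAC14OX* and 31.2 and 31.9 FPKM in NT (log2 fold change -0.10). None of the 4 glutaredoxin transcripts passed the adjusted threshold. Of the 12, 8 had negative and 4 positive log2 fold changes, against 49.3% negative among all tested transcripts. Of the 11 tested transcripts listed as conjugate pumps, 2 had negative and 9 positive values. These 11 include the RNase MRP subunits Os11t0677500-00 (-0.18) and Os05t0472300-01 (0.09), which are not pumps. The 2 pumps with an unadjusted p under 0.05 were Os05t0196100-01, with 8.59 and 7.75 FPKM in *OsNAC14OX* and 5.93 and 6.61 FPKM in NT, and Os04t0209300-01, with 4.39 and 4.41 FPKM in *OsNAC14OX* and 3.40 and 3.11 FPKM in NT. In Os05t0196100-02, another model of the gene of Os05t0196100-01, the groups overlapped (log2 fold change 0.20). The glyoxalase I-like Os08t0191700-03 had 289.4 and 287.5 FPKM in *OsNAC14OX* and 246.4 and 194.7 FPKM in NT. It is a model of the same gene as Os08t0191700-01, whose log2 fold change was 0.13, and the division of reads between models is an estimate. The peroxidase Os06t0185900-01 had 57.5 and 65.6 FPKM in *OsNAC14OX* and 80.1 and 79.9 FPKM in NT. Neither these 2 pumps nor the glyoxalase nor the peroxidase passed the adjusted threshold.

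In 1 of the 67 tested transcripts of the list (1.49%) *OsNAC14OX* replicate 1 was at least 2-fold above replicate 2, against 3.55% of all tested transcripts, and in 0 it was at least 2-fold below, against 1.11%. This was the phytochelatin synthetase-like Os10t0497700-01, with 26.0 and 5.85 FPKM in *OsNAC14OX* and 5.18 and 5.76 FPKM in NT. Without *OsNAC14OX* replicate 2 its log2 fold change was 2.05 (limma adjusted p = 0.0295, a call). The next largest splits, as log2 of replicate 1 over replicate 2, were 0.90 in the glutathione peroxidase Os04t0556300-01, -0.81 in the glutathione reductase transcript Os02t0813500-03, -0.70 in Os05t0171900-02, 0.67 in Os08t0557600-01 and -0.64 in Os01t0368900-01, with either replicate the higher. Os04t0556300-01, the most abundant peroxidase of the list, had 310.2 and 171.8 FPKM in *OsNAC14OX* and 183.2 and 212.0 FPKM in NT.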

How the data were processed

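Leaf RNA of 2 *OsNAC14OX* and 2 NT samples was sequenced as single-end reads. Per the methods, reads were trimmed with Trimmomatic and mapped with TopHat to IRGSP-1.0 with RAP-DB gene models. The FPKM tool and the handling of reads shared by paralogs are not given in the sources used here. Deposited by the authors were FPKM per transcript and log2 values, which are log2(FPKM + 1) after quantile normalization over a larger set of libraries. The table has 4 further per-sample columns, which were not used. Columns and tables of the authors' own comparisons (folds, p-values, term lists) were not used. FPKM values were not whole-read steps, so the depth and its precision are unknown.

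Transcripts reaching 1 FPKM in 2 or more libraries were tested with limma 3.58.1 (R 4.3.3; lmFit, eBayes with trend, two-sided, Benjamini-Hochberg adjustment over all 30251 transcripts) on the deposited log2 values, without covariates. Calls combined an adjusted p below 0.05 with a 2-fold difference. Standard errors and 95% intervals are those of limma. The fit was tried on simulated independent normal values with each transcript's mean and limma's spread. Changes of 1.5, 2 and 4 on the log2 scale were called in 76.1%, 91.0% and 97.0% of the changed transcripts. That run also gave 15 false calls, and a run without changes gave 0 calls. The text names GST transcripts that were called, the 10 highest genes, the 6 most positive and 6 most negative transcripts, the 5 largest *OsNAC14OX* replicate splits, the highest gene of each tandem group of at least 3 genes, and the highest transcript of each part of the glutathione list; others are given as groups or were chosen after their values were seen. Alternatives were other pseudocounts, filters and normalizations, gene sums, a replicate block, other call rules, domain-only members left out, other tandem distances and each library left out. Members and lists were chosen with earlier results of these data known. Sequences are not shown here. Computation used Python 3.11.15 with pandas 2.3.3, numpy 2.4.6 and matplotlib 3.10.9.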

Additional observations from a re-analysis of the deposited data

How the results depend on the processing

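No GST transcript was called under any alternative run, except that 1 (Os04t0435500-01) was called without *OsNAC14OX* replicate 2, so the count ran from 0 to 1 when single libraries were left out. The glutathione list likewise ran from 0 to 1, and gave 1 (Os01t0368900-01) at an unadjusted p under 0.05 with a 2-fold difference. Over all tested transcripts the calls ran from 0 (without either NT replicate) to 772 (without *OsNAC14OX* replicate 2), beside 168 with all libraries. In these fits the lone library of a group is assumed to vary like the other group. Calls over all transcripts were also fewer with no filter on FPKM (109) and with FPKM of at least 5 (112).

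The GST median log2 fold change ran from -0.102 to 0.0313 when single libraries were left out. With FPKM summed per gene, which also left out the quantile normalization, the values of Os10t0525400-01, Os11t0588300-01 and Os07t0468100-01 turned to -0.00237, -0.0373 and -0.0567. Without quantile normalization alone they were 0.0493, 0.0958 and 0.315. With single libraries left out, the log2 fold change ran from -0.323 to 0.0714 in Os01t0764000-01, from -0.102 to 0.0313 in Os03t0134900-01, from -0.0719 to 0.214 in Os10t0525400-01, from -0.231 to 0.0957 in Os07t0468100-02, from -0.826 to 0.00415 in Os10t0529500-01, from -0.762 to 1.43 in Os04t0435500-01, from -0.475 to 0.312 in Os10t0525800-00 and from -0.386 to 0.159 in Os07t0168300-01. In the other 15 named transcripts it kept its sign, but in 10 of them it moved by over 1.5 times: from -0.62 to -0.146 in Os01t0369700-01, from -0.953 to -0.43 in Os01t0369700-03, from -0.907 to -0.0387 in Os01t0371500-01, from 0.0675 to 0.241 in Os01t0949750-00, from -0.306 to -0.137 in Os02t0319300-01, from 0.222 to 0.463 in Os07t0468100-01, from 0.141 to 0.375 in Os10t0525500-01, from -0.21 to -0.0492 in Os10t0530400-01, from 0.0247 to 0.211 in Os11t0588300-01 and from 0.0199 to 0.215 in Os12t0210300-01. The value of Os10t0530200-01 was -0.811 at a pseudocount of 0.5 and -1.10 at 0.1.

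The correlation of deviations between same-numbered libraries was 0.00 over 30251 transcripts. It cannot show whether the samples were grown or prepared in pairs, which the labels do not state. With the replicate block 0 GST transcripts and 0 of all transcripts were called, against 168 of all without it. The block adds a term to a fit of 4 libraries, which leaves less to estimate the spread, so the drop in calls says nothing of pairing. The depth is unknown, so counting error could not be separated from the spread between libraries.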
